A study of Rattus norvegicus with 15 samples.

Results

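A set of 12 genes was examined whose level in the intestine of sham-operated Goto-Kakizaki (GK) rats differed from that of Wistar rats, while the level in GK rats after Roux-en-Y gastric bypass (RYGB) lay close to that of Wistar rats. The GK strain was bred from Wistar rats and is lean but inherits type 2 diabetes, and RYGB joins a small gastric pouch to a jejunal limb, the Roux limb (RL), so that food bypasses the duodenum. The genes were selected from the array values themselves. A gene was kept if its mean log2 level in GK-Sham-PF rats differed from Wistar by at least 0.8, if the mean of GK-S-30 rats lay within 0.25 times that difference from Wistar, and if the 5 GK-Sham-PF arrays overlapped with neither other group. Of 13013 named genes tested, 12 met the rule, with 4 lower and 8 higher in GK-Sham-PF rats. With no bound on size, the GK-Sham-PF arrays lay apart from both other groups on 1 side for 86 genes, or 0.661% of those tested. Because all 3 groups were used for the selection, the differences between them are given below as a description, without a test.

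Each group held 5 male rats with 1 array per rat. Wistar rats had no operation. GK-Sham-PF rats were GK rats that were sham-operated and pair-fed, and GK-S-30 rats were GK rats with RYGB and an RL of 30 cm. Both GK groups were operated on at 16 wk of age and tissue was taken 14 wk postoperation. The RL was sampled after RYGB, and in the other groups the piece of intestine at the matching position. Strain, operation and pair-feeding therefore differed together between Wistar rats and the sham-operated GK rats and cannot be told apart. GK rats without an operation were not analysed here.

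The 12 genes do not belong to 1 known pathway. The lower genes encode AMP deaminase 3 (Ampd3), the B cell ligand APRIL (Tnfsf13), a folate-dependent enzyme of histidine breakdown (Ftcd) and an enzyme of ketone body use (Oxct2b). The higher genes encode AMP deaminase 1 (Ampd1), a cytochrome P450 of the intestine (Cyp3a62), an atypical member of the 70-kDa heat shock protein family (Hspa12a), an IQ motif and ubiquitin domain protein (Iqub), a tight junction protein (Cldn1) and a membrane protein of lysosomes (Gpr137), besides a granzyme-region pseudogene (LOC100361261) and an uncharacterized gene (RGD1306484). AMP deaminases convert AMP to IMP and open the purine nucleotide cycle, in which the isozyme of Ampd1 is known from skeletal muscle and that of Ampd3 from erythrocytes and many other tissues. Enterocytes oxidize drugs and steroids through Cyp3a enzymes before these reach the portal blood, and the mucosa maintains IgA plasma cells through ligands such as APRIL.

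Levels are log2 values of the quantile-normalized processed signal of 1 probe of 60 bases per gene, the brightest, so a difference of 1 stands for a doubling, and levels of different probes are not comparable. The plot of array levels shows all values of the 12 genes.

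**Figure D1:**
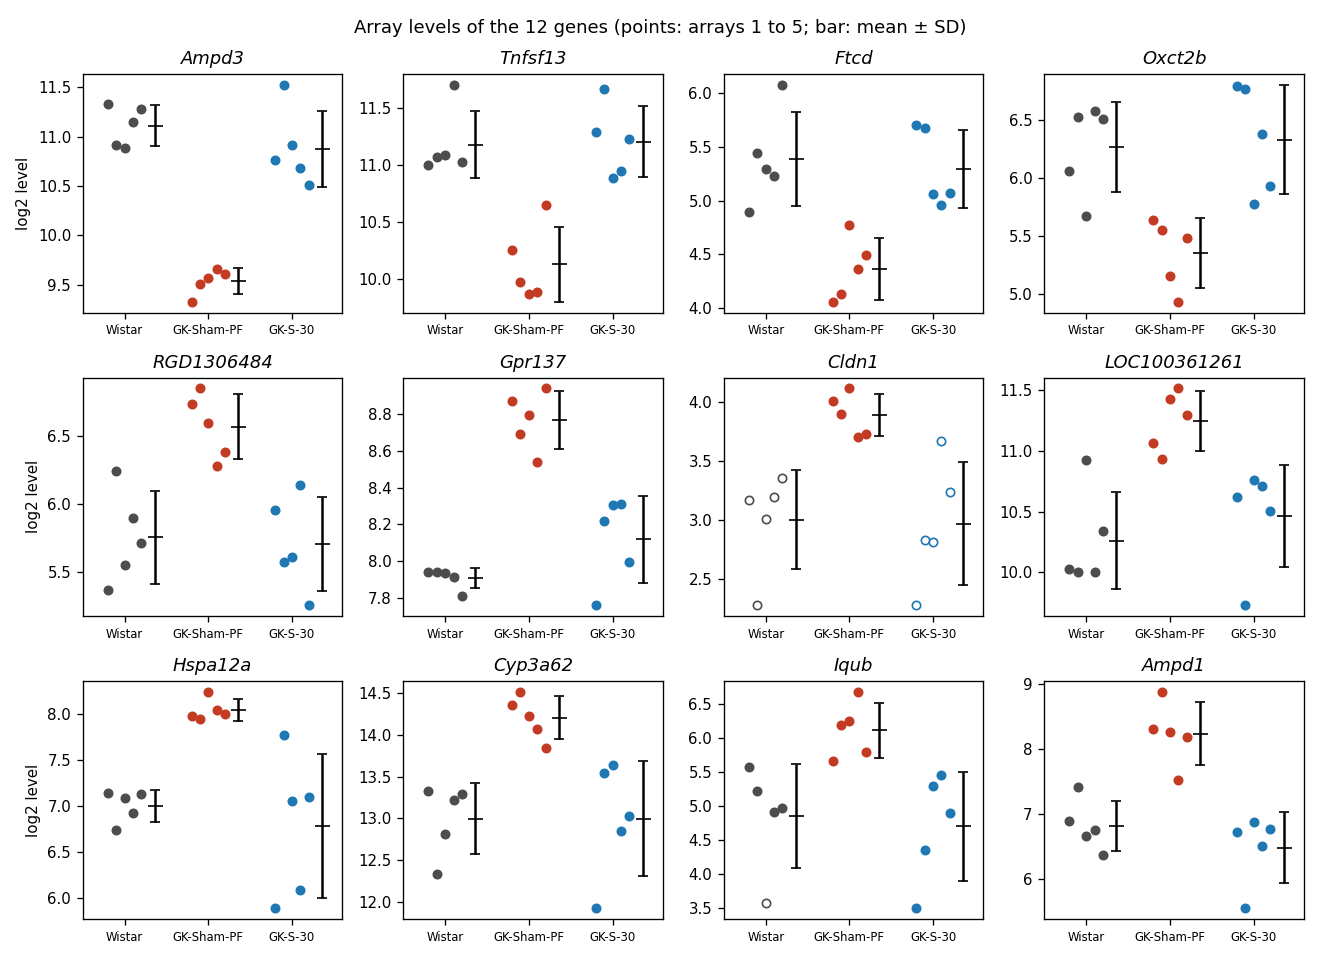
Log2 level of the 12 genes on each of the 15 arrays, with points for arrays 1 to 5 of each group, open where the probe was not well above background, and a bar for the mean ± SD (n = 5). For Ampd3, Tnfsf13, Ftcd and Oxct2b the GK-Sham-PF arrays lie lower than all others, and for the other 8 genes higher, as the selection requires.

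The AMP deaminase genes held the largest difference in each direction. Their 3 probes of 60 bases are shown because these genes carry the opposite movements, 1 for Ampd3 on chromosome 1 and 2 for Ampd1 on chromosome 2 (array annotation, rn4, whose exons were not used here). The first Ampd1 probe spans 4097 bases of the genome and therefore crosses at least 1 intron, and the second, which lies nearer to the 3′ end, was the brightest.
Ampd3, chr1:168568143-168568202: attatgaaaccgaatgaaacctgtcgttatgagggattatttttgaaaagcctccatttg
Ampd1 first, chr2:198308512-198312608: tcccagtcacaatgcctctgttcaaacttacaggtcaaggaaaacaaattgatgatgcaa
Ampd1 second, chr2:198330906-198330965: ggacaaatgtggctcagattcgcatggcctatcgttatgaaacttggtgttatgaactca

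Ampd3 read 11.33, 10.91, 10.89, 11.15 and 11.27 on Wistar arrays 1 to 5, 9.32, 9.51, 9.56, 9.66 and 9.61 on GK-Sham-PF arrays, and 10.76, 11.52, 10.91, 10.68 and 10.51 on GK-S-30 arrays. All 5 GK-Sham-PF arrays were low and within 0.34 of each other, and the nearest array of another group was 0.85 away. The mean was 9.53 ± 0.13 (SD, n = 5) in GK-Sham-PF rats, 11.11 ± 0.20 in Wistar rats and 10.88 ± 0.39 in GK-S-30 rats, a 2.99-fold difference between Wistar and GK-Sham-PF rats. A share of 0.15 of the difference from Wistar remained in GK-S-30 rats.

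Ampd1 read 6.89, 7.42, 6.66, 6.75 and 6.37 on Wistar arrays, 8.31, 8.88, 8.26, 7.52 and 8.18 on GK-Sham-PF arrays, and 6.72, 5.55, 6.88, 6.5 and 6.76 on GK-S-30 arrays. GK-Sham-PF array 4 lay only 0.10 above Wistar array 2, whereas the gap to the GK-S-30 arrays was 0.65. The mean of GK-Sham-PF rats, 8.23 ± 0.48, was 2.66-fold that of Wistar rats, 6.82 ± 0.38, and the mean of GK-S-30 rats, 6.48 ± 0.54, lay below that of Wistar rats. The dimmer Ampd1 probe had means of 3.38 ± 0.36 in Wistar rats, 3.96 ± 1.10 in GK-Sham-PF rats and 2.86 ± 0.98 in GK-S-30 rats, in the same order but with overlapping arrays, and it was well above background on 3, 4 and 0 arrays. The levels of Ampd1 and Ampd3 therefore differed from Wistar in opposite directions in GK-Sham-PF rats, by 1.41 and -1.58. Both stood near the Wistar levels in GK-S-30 rats, as the rule requires.

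The other enzymes of purine turnover, chosen after the values were seen, took other courses. Ampd2, another AMP deaminase, had levels of 7.18 ± 0.07 in Wistar rats, 6.94 ± 0.08 in GK-Sham-PF rats and 6.54 ± 0.33 in GK-S-30 rats, lowest after RYGB. Pnp, which splits purine nucleosides, differed from Wistar by -0.38 after the sham operation and by -0.56 after RYGB. Adsl and Adss2, which complete the purine nucleotide cycle, differed from Wistar by 0.14 and 0.12 in GK-Sham-PF rats and by 0.08 and 0.17 in GK-S-30 rats.

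Cyp3a62 encodes a cytochrome P450 known from the rat intestinal tract. It read 13.33, 12.33, 12.82, 13.22 and 13.29 on Wistar arrays, 14.36, 14.52, 14.22, 14.07 and 13.85 on GK-Sham-PF arrays, and 11.92, 13.54, 13.64, 12.85 and 13.02 on GK-S-30 arrays. GK-S-30 array 1 was the lowest of all 15, and the highest GK-S-30 array lay 0.21 below the lowest GK-Sham-PF array. The mean was 13.00 in each of Wistar (SD 0.43) and GK-S-30 rats (SD 0.69) and 14.20 ± 0.26 in GK-Sham-PF rats, which is 2.31-fold higher.

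The Cyp3a62 probe is unmapped in the rn4 annotation of the array and resembles the probe of Cyp3a18, a second Cyp3a gene, which it matched at 41 of 52 aligned bases (78.8%). Both are shown with the aligned bases that differ in capitals, since similar probes may share signal, which was not tested.
Cyp3a62: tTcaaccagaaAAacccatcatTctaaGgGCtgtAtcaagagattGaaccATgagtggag
Cyp3a18: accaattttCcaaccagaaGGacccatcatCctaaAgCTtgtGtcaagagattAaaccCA
The Cyp3a18 level took another course, at 12.93 ± 0.28 in Wistar rats, 10.29 ± 0.56 in GK-Sham-PF rats and 10.10 ± 0.91 in GK-S-30 rats, so it was low in both GK groups. Cyp3a9, also of this family, read 15.99 ± 0.38, 15.60 ± 0.45 and 15.07 ± 0.80 in the same order of groups. Of the other genes in the set, 1 had a probe with at least 70% identity to a probe of another gene over at least 40 ungapped bases, RGD1306484 with Fam162a at 42 of 59 bases (71.2%).

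Across the enzymes of xenobiotic phase I, a list of 40 genes with 31 tested that holds Cyp3a62, the limma test over all genes (adjusted p under 0.05) called 7 higher and 6 lower in GK-Sham-PF than in Wistar rats. Over all tested genes it called 4.20% higher and 4.60% lower. The 7 include Cyp3a62, which the rule selected on this difference. The median difference from Wistar in the list was -0.32 after the sham operation and -0.53 after RYGB, against 0.01 and -0.02 over all genes. Of the genes named here, chosen after their values were seen, Akr1b8, an aldo-keto reductase, differed from Wistar by -5.10 in GK-Sham-PF rats and by 1.07 times as much after RYGB. For Ces2c, a carboxylesterase, the difference was 2.49 and a share of 0.85 remained. Cyp4f5, a fatty acid hydroxylase, was among the genes just outside the rule, with a difference of 1.52 and a share of 0.31 remaining.

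Tnfsf13 encodes APRIL, a ligand of the TNF family that sustains plasma cells. It read 10.995, 11.07, 11.09, 11.70 and 11.03 on Wistar arrays, 10.26, 9.97, 9.87, 9.88 and 10.65 on GK-Sham-PF arrays, and 11.29, 11.66, 10.89, 10.94 and 11.22 on GK-S-30 arrays. GK-Sham-PF array 5, 1 of the 2 dimmest arrays, was the highest of its group and lay 0.24 below the lowest GK-S-30 array. The means were 11.17 ± 0.29 in Wistar rats, 10.13 ± 0.33 in GK-Sham-PF rats and 11.20 ± 0.31 in GK-S-30 rats, with a 2.07-fold difference between Wistar and GK-Sham-PF rats.

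Its receptors and its neighbour, chosen after the values were seen, took other courses. Tnfsf12, the next gene on the chromosome, had levels of 7.29 ± 0.20 in Wistar rats, 7.35 ± 0.07 after the sham operation and 6.98 ± 0.14 after RYGB. Tnfrsf17, the plasma cell receptor of APRIL also called BCMA, read 9.34 ± 0.26, 9.18 ± 0.18 and 9.89 ± 0.41 in the same order. Tnfrsf13b, which encodes the receptor TACI, read 4.42 ± 0.44, 5.50 ± 0.72 and 5.64 ± 0.37, so it was higher in both GK groups. The markers of B and plasma cells, 7 of 15 tested, had a mean log2 level of 8.39 to 8.80 on Wistar, 8.79 to 9.41 on GK-Sham-PF and 9.0 to 9.68 on GK-S-30 arrays. The part of these cells in the Tnfsf13 level was not tested.

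Ftcd encodes a bifunctional enzyme that passes the formimino group of histidine to folate. It read 4.89, 5.44, 5.30, 5.23 and 6.07 on Wistar arrays, 4.06, 4.13, 4.77, 4.37 and 4.49 on GK-Sham-PF arrays, and 5.70, 5.67, 5.06, 4.95 and 5.07 on GK-S-30 arrays. The groups were separated by 0.12 and 0.18 at their closest arrays. The probe was dim, with a mean level at percentile 12.8 of all tested genes. The means were 5.39 ± 0.43, 4.36 ± 0.29 and 5.29 ± 0.36, a 2.03-fold difference between Wistar and GK-Sham-PF rats. Uroc1, the urocanase that acts 2 steps earlier in the pathway and was chosen after its values were seen, read 3.39 ± 0.37, 3.64 ± 0.41 and 4.90 ± 0.24, so its mean was highest in GK-S-30 rats.

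Of the amino acid metabolism list, 31 of 33 genes were tested, and the limma test called 0 higher and 5 lower in GK-Sham-PF than in Wistar rats, against 4.20% and 4.60% of all genes. At an unadjusted p under 0.05 limma called 2 higher and the Tukey comparison of the study's methods 0. Among the lower genes were Ftcd, Mccc1, Maoa and Arg2, named after their values were seen. Ftcd was selected by the rule on this difference. The difference of Arg2, an arginase, was -0.47 in GK-Sham-PF rats and -0.66 in GK-S-30 rats. Maoa, monoamine oxidase A, differed by -0.48 and its difference changed sign after RYGB, with a share of -0.64. After RYGB 2 genes of the list were higher and 2 lower than in sham-operated GK rats, where 5.17% of all genes were higher and 4.45% lower. The 2 higher genes include Ftcd, for which the selection also fixed this direction.

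Oxct2b encodes a succinyl-CoA transferase that activates acetoacetate, known from testis. It read 6.06, 6.52, 5.67, 6.57 and 6.5 on Wistar arrays, 5.64, 5.55, 5.16, 4.93 and 5.49 on GK-Sham-PF arrays, and 6.79, 6.77, 5.77, 6.38 and 5.93 on GK-S-30 arrays. The gap to Wistar array 3, the lowest of that group, was 0.03. The means were 6.27 ± 0.39, 5.35 ± 0.30 and 6.33 ± 0.47, a 1.88-fold difference between Wistar and GK-Sham-PF rats. A second probe, 1 of only 2 cases with another probe well above background on all 15 arrays, had means of 5.32 ± 0.45, 4.43 ± 0.27 and 5.50 ± 0.40 and differed from Wistar by -0.89 in GK-Sham-PF rats. The 2 probes overlap by 19 bases, in capitals, so they are not independent readings of the transcript.
Oxct2b other probe, chr5:142433601-142433660: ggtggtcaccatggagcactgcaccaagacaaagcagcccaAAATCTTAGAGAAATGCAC
Oxct2b chosen probe, chr5:142433642-142433701: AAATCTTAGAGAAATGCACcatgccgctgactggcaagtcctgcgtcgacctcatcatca
RefSeq lists a near copy, Oxct2a, on the same chromosome, and a signal from it cannot be told apart here. Oxct1, the ubiquitous form of the enzyme (chosen after its values were seen), read 9.25 ± 0.31, 9.37 ± 0.17 and 10.07 ± 0.37, with the highest mean after RYGB. Bdh1, which interconverts the ketone bodies, read 10.47 ± 0.12, 8.82 ± 0.26 and 9.10 ± 0.15, and remained low in both GK groups.

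Hspa12a read 7.13, 6.73, 7.09, 6.93 and 7.13 on Wistar arrays, 7.97, 7.95, 8.24, 8.04 and 7.99 on GK-Sham-PF arrays, and 5.89, 7.76, 7.06, 6.09 and 7.10 on GK-S-30 arrays. The GK-Sham-PF arrays were tight (SD 0.12) and the GK-S-30 arrays wide (SD 0.78), with array 2 close to the GK-Sham-PF arrays. The means were 7.001 ± 0.17, 8.04 ± 0.12 and 6.78 ± 0.78, a 2.05-fold difference. Its 4 probes measured the transcript at separate places, and they are shown because they did not read alike.
Hspa12a chosen, chr1:265305335-265305394: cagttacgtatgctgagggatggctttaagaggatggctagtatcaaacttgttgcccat
Hspa12a second, chr1:265305677-265305736: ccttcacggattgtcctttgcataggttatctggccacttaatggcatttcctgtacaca
Hspa12a intron-crossing, chr1:265309322-265310310: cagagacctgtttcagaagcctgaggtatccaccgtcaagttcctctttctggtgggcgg
Hspa12a dim, chr1:265333868-265333927: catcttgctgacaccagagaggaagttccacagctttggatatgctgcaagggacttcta
The second probe, next to the chosen one, had means of 6.35 ± 0.37, 7.32 ± 0.30 and 6.25 ± 0.83. Its lowest GK-Sham-PF array, at 6.83, lay below its highest GK-S-30 array, at 7.22. The intron-crossing probe, further from the 3′ end, was well above background on all arrays and had means of 4.56 ± 0.23, 4.71 ± 0.24 and 4.55 ± 0.98, a difference from Wistar of 0.15 in GK-Sham-PF rats in place of 1.04. The dim probe, well above background on 3 GK-Sham-PF arrays and on 0 of the others, had means of 2.80 ± 0.40, 3.69 ± 0.41 and 2.93 ± 0.74. Of the 4 probes the intron-crossing one therefore differed least, and Hspa12a left the set where its probes that passed the filter were averaged.

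**Figure D2:**
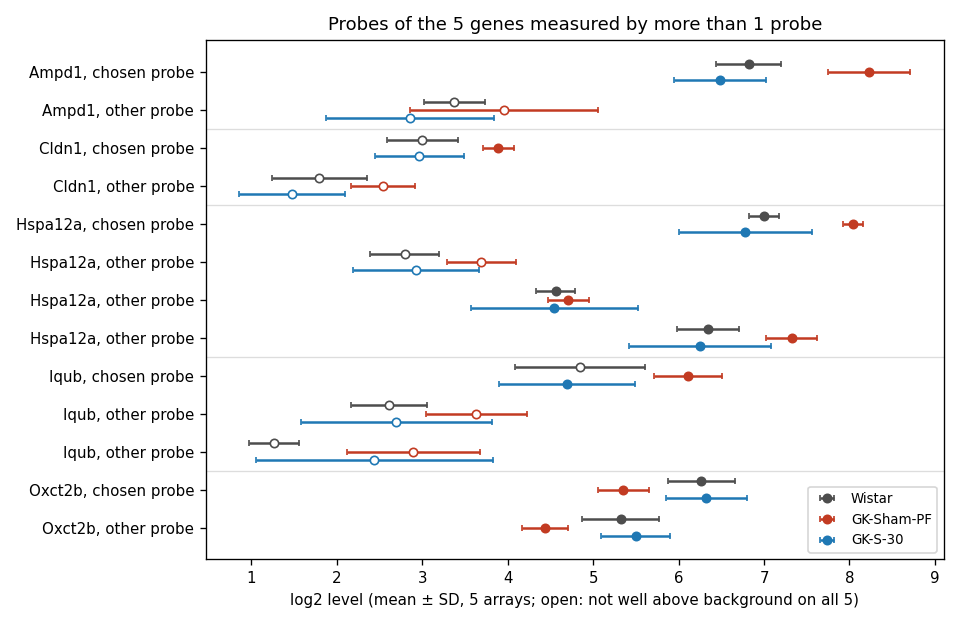
Mean log2 level ± SD (n = 5) of each probe of the 5 genes that had more than 1 probe, by group, with open circles where the probe was not well above background on all 5 arrays of the group. The intron-crossing Hspa12a probe reads 4.56 in Wistar rats, 4.71 after the sham operation and 4.55 after RYGB, while the chosen probe reads 7.001, 8.04 and 6.78.

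Iqub read 5.57, 5.22, 3.57, 4.92 and 4.97 on Wistar arrays, 5.66, 6.18, 6.24, 6.67 and 5.79 on GK-Sham-PF arrays, and 3.50, 4.35, 5.29, 5.46 and 4.90 on GK-S-30 arrays. The highest Wistar array and the lowest GK-Sham-PF array were 0.09 apart, and 4 of the 5 Wistar arrays were well above background. The means were 4.85 ± 0.76, 6.11 ± 0.40 and 4.70 ± 0.80, a 2.39-fold difference with the widest spread within Wistar rats of the 12 genes. The 2 dim probes of Iqub each had the highest mean in GK-Sham-PF rats. For 1 of them the means were 2.61 ± 0.44, 3.63 ± 0.59 and 2.70 ± 1.12. Its arrays overlapped between groups, and it was well above background on 0, 3 and 1 arrays. The other kept 0.72 of its difference in GK-S-30 rats.

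Cldn1 encodes claudin 1, a barrier-forming protein of tight junctions. It read 3.17, 2.28, 3.01, 3.20 and 3.36 on Wistar arrays, 4.01, 3.90, 4.12, 3.71 and 3.73 on GK-Sham-PF arrays, and 2.28, 2.83, 2.81, 3.67 and 3.24 on GK-S-30 arrays. It was well above background on all 5 GK-Sham-PF arrays and on 0 Wistar and 0 GK-S-30 arrays. GK-S-30 array 4 lay 0.04 below the lowest GK-Sham-PF array. The GK-Sham-PF mean of 3.89 was 1.41-fold the background level set for Wistar rats and 1.26-fold that set for RYGB rats. This level was the mean over arrays of the lowest signal well above background, or the probe's own where higher. The ratios are not minimum differences, since the probe was kept only for its GK-Sham-PF signal. With normexp background correction and an offset of 50, the log2 difference from Wistar was 0.11 in place of 0.89. The offset, added to every signal, by itself shrinks the difference of a probe this dim. Another Cldn1 probe was well above background on 0 arrays of each group. Its means were 1.80 in Wistar rats, 2.54 after the sham operation and 1.48 after RYGB, with overlapping arrays.

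The tight junction list, with 19 of 20 genes tested, had a median difference from Wistar of -0.04 in each GK group. Cldn1 passed the filter on dim probes only through GK-Sham-PF rats, and it was selected on its difference from Wistar. Other claudins of the epithelium, named after their values were seen, had differences between GK-Sham-PF and Wistar of -0.06 for Cldn3, 0.16 for Cldn4 and -0.04 for Cldn7.

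LOC100361261 read 10.02, 10.00, 10.92, 10.01 and 10.34 on Wistar arrays, 11.06, 10.93, 11.42, 11.51 and 11.30 on GK-Sham-PF arrays, and 10.62, 9.73, 10.76, 10.71 and 10.51 on GK-S-30 arrays. Wistar array 3, the dimmest of its group, reached within 0.01 of the lowest GK-Sham-PF array. The means were 10.26 ± 0.40, 11.25 ± 0.24 and 10.47 ± 0.42, a 1.98-fold difference. RefSeq (GRCr8) holds it as a pseudogene on chromosome 15, near Gzmc-ps1 and Gzmbl1, in the cluster of granzyme genes, so its probe is shown.
LOC100361261, chr15:34900680-34900739: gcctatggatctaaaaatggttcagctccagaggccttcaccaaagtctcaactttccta
Granzymes are proteases of cytotoxic lymphocytes. The list of cytotoxic lymphocyte and NK cell markers, 20 of 26 tested, had a mean log2 level of 8.14 to 8.50 on Wistar, 8.62 to 8.89 on GK-Sham-PF and 7.85 to 8.42 on GK-S-30 arrays. In this list limma called 7 genes higher and 0 lower in GK-Sham-PF than in Wistar rats, against 4.20% and 4.60% of all genes. After RYGB 0 were higher and 10 lower than after the sham operation, against 5.17% and 4.45% of all genes, and 2 were higher and 7 lower than in Wistar rats, against 12.5% and 13.8%. Genes called in both of the first comparisons were Gzmf, Klrd1 and Gzmb, while others of the 10, such as Cd3d and Cd7, differed from Wistar by -0.50 and -0.85 after RYGB. At an unadjusted p under 0.05 the former count of 0 was 1 by limma and 0 by the Tukey comparison, and the latter was 0 by both. The part of these cells in the LOC100361261 level was not tested. The granzymes took unlike courses. Gzmc differed from Wistar by 1.62 in GK-Sham-PF rats and a share of 1.09 remained after RYGB, Gzmf differed by 1.11 with 0.53 remaining and Gzmb by 1.06 with 0.40. Klrd1, a receptor subunit of NK cells, differed by 1.06 with 0.30 remaining. The lymphocyte genes Cd3d and Cd7 differed by 0.16 and -0.09 in GK-Sham-PF rats. In whole tissue, more cells of a type and more RNA per cell cannot be told apart.

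Gpr137 encodes a membrane protein of the lysosome. It read 7.94, 7.94, 7.94, 7.92 and 7.81 on Wistar arrays, 8.87, 8.69, 8.79, 8.54 and 8.94 on GK-Sham-PF arrays, and 7.76, 8.22, 8.31, 8.31 and 7.99 on GK-S-30 arrays. Wistar arrays were the tightest of all 12 genes (SD 0.06), and 4 GK-S-30 arrays lay above every Wistar array. The means were 7.91, 8.77 ± 0.16 and 8.12 ± 0.24, a 1.81-fold difference of which a share of 0.24 remained, just within the rule. Its probe lies on chromosome 1 and its 60 bases span 180 bases of the genome (rn4), so it crosses an intron.

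RGD1306484 is an uncharacterized gene, named here as in the array annotation. It read 5.37, 6.25, 5.55, 5.90 and 5.71 on Wistar arrays, 6.74, 6.85, 6.60, 6.28 and 6.38 on GK-Sham-PF arrays, and 5.96, 5.57, 5.61, 6.14 and 5.26 on GK-S-30 arrays. The closest Wistar and GK-Sham-PF arrays were 0.04 apart. The means were 5.75 ± 0.34, 6.57 ± 0.24 and 5.71 ± 0.35, and the difference of 0.82 was the smallest of the 12 genes.

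Promoter sequence (RefSeq, GRCr8, 250 bases before the start) was matched for 8 of the 12 genes. The 4 motifs searched on both strands were the usual core promoter box TATAAA, the E-box CACGTG, the nuclear receptor site AGGTCA and the MEF2 core TATTTATA. The last of these holds the first on its other strand, so both match the same letters. The core promoter box occurred in 3 of the 8 (Ftcd, Cyp3a62 and Ampd1) and in 13.1% of 27457 promoters. The MEF2 core occurred in 2 of the 8 and in 1.7% of all, whereas the E-box (5.8% of all) and the nuclear receptor site (13.7% of all) occurred in 0 of the 8. The 2 promoters with the MEF2 core are those of the higher genes Ampd1 and Cyp3a62, shown with the motif letters in capitals; a match is a description of the letters and not a site.
Ampd1, chr2:193287082-193287331, + strand: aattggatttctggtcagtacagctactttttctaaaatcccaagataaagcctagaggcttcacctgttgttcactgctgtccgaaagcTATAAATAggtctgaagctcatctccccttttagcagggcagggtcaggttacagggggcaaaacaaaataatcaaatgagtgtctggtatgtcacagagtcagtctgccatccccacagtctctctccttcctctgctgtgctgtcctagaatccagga
Cyp3a62, chr12:21511513-21511762, + strand: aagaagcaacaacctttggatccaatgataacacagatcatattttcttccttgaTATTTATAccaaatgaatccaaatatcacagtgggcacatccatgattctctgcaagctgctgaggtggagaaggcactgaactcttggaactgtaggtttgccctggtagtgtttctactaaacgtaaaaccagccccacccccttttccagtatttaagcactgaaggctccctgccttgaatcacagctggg

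The 12 genes were a small part of the differences from Wistar rats. A mean difference of at least 0.8 was found for 599 genes, 315 higher and 284 lower. The median share of that difference remaining after RYGB was 0.93. The share was within 0.25 of 0 for 47 genes (7.85%), between 0.25 and 0.5 for 50, between 0.5 and 0.75 for 68 and above 0.75 for 414, while 20 genes lay beyond the Wistar level by more than 0.25 of the difference. Of the 47, arrays overlapped for 35, with both other groups for 25, with Wistar only for 3 and with GK-S-30 only for 7.

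**Figure D3:**
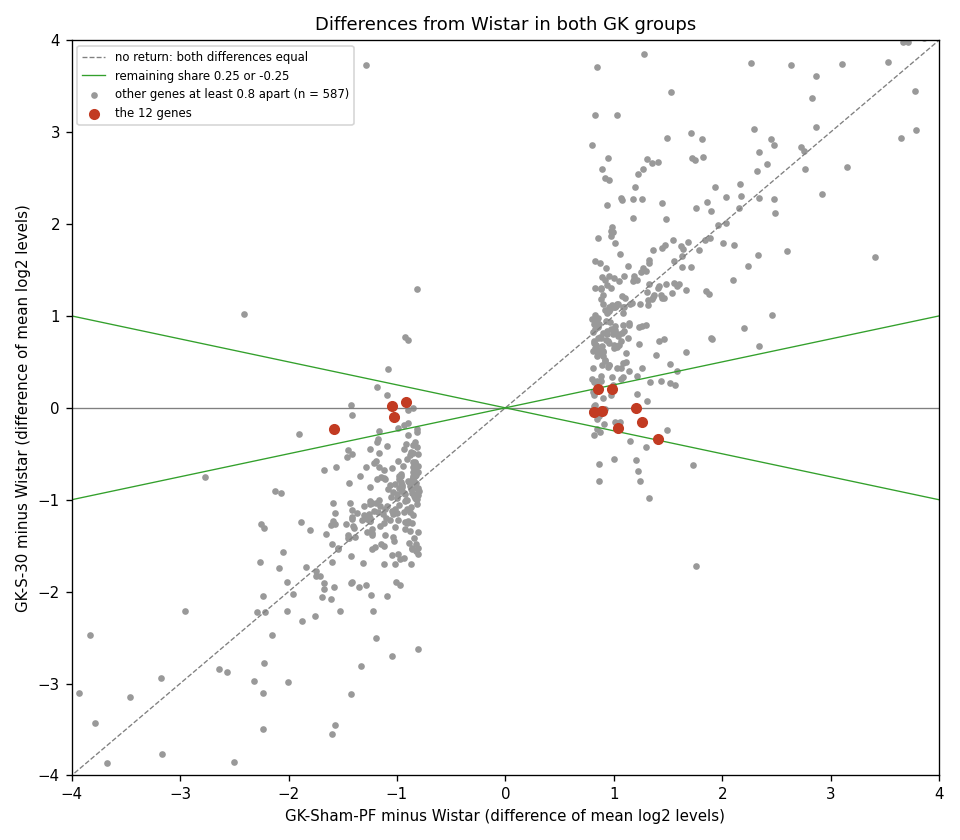
Difference of mean log2 levels from Wistar in GK-S-30 rats (vertical) against that in GK-Sham-PF rats (horizontal) for the 599 genes at least 0.8 apart, with the 12 genes in red, the bounds of the share of 0.25 as green lines and equal differences as a dashed line; 28 genes lie outside the axes at 4. Most genes lie near the dashed line, and the 12 lie near 0 on the vertical axis with horizontal values from -1.58 to 1.41.

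Limma called 11 of the 12 genes between Wistar rats and sham-operated GK rats (all but Iqub), 12 between the GK groups and 0 between Wistar rats and those with RYGB, where 12.5% of all genes were higher and 13.8% lower. At an unadjusted p under 0.05 the count of 0 was also 0 by limma and by the Tukey comparison. The rule used these contrasts, so nothing is read from the counts, and both differences rest on the same 5 GK-Sham-PF arrays.

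The largest SD of the 3 groups was that of GK-S-30 rats for 10 of the 12 genes, and the smallest was that of GK-Sham-PF rats for 9, which the requirement that its arrays stand apart favors. The mean of GK-S-30 rats lay beyond that of Wistar rats for 8 genes, and the arrays of these groups overlapped for all 12.

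A smaller difference alone kept 14 genes out of the rule, and a larger share remaining alone kept out 25, some of them far from the bound. The nearest on size were as follows. Mcpt8, a mast cell protease, differed by 0.73 with a share of 0.11, Txnip, the thioredoxin-interacting protein, by 0.65 with 0.05, and Gpx3, a secreted glutathione peroxidase, by 0.62 with -0.11. Nearest on the share was Rdh16, a retinol dehydrogenase, which differed by 1.58 with a share of 0.26. Among the 35 genes that met the means but whose arrays overlapped were several of adipocytes, named after their values were seen. Adipoq, the fat hormone adiponectin, read 10.08, 7.13, 5.88, 6.64 and 5.28 on Wistar, 5.74, 9.88, 9.61, 9.72 and 7.86 on GK-Sham-PF and 6.70, 8.84, 6.33, 6.86 and 7.52 on GK-S-30 arrays. The highest were GK-Sham-PF arrays 2 to 5, Wistar array 1 and GK-S-30 array 2. A list of 13 adipocyte genes, 10 tested, had a mean log2 level of 6.96 to 9.30 on Wistar (median 7.54), 7.33 to 9.20 on GK-Sham-PF (median 8.96) and 7.38 to 8.72 on GK-S-30 arrays (median 7.51). Its genes took unlike courses, as 2 more, also named after their values were seen, show. Retn differed from Wistar by 1.625 in GK-Sham-PF rats, and a share of 1.02 remained after RYGB. Cidec was not higher in GK-Sham-PF rats, at 8.67 to 9.50 against 8.66 to 10.02 on Wistar arrays.

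The marker lists of the tissue moved unequally. Epithelial genes, 13 of 13 tested, had mean log2 levels of 13.44 to 13.65 on Wistar, 13.42 to 13.67 on GK-Sham-PF and 13.69 to 13.78 on GK-S-30 arrays. Myeloid cell genes, 17 of 19 tested, had 8.34 to 8.87, 8.88 to 8.99 and 8.63 to 8.73, highest on the GK-Sham-PF arrays. They took unlike courses, as limma called 4 higher and 2 lower in GK-Sham-PF than in Wistar rats, against 4.20% and 4.60% of all genes. S100a8 and S100a9, named after their values were seen, differed from Wistar by 3.78 and 2.03, with shares of 0.91 and 0.99 remaining after RYGB. Itgam, also named so, differed by -2.08 with 0.84 remaining. Smooth muscle genes, 18 of 20 tested, had 10.28 to 10.87, 10.16 to 11.08 and 11.37 to 11.70, so they were higher in GK-S-30 rats. The part of these cell types in the 12 genes was not tested.

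The 15 arrays were spread over 4 slides. Wistar and GK-S-30 arrays shared 0 slides, and each of these groups shared 1 with GK-Sham-PF arrays. Slide B held Wistar array 1 and GK-Sham-PF arrays 1 to 3, and slide C held GK-Sham-PF arrays 4 and 5 and GK-S-30 arrays 1 and 2. The rule lets no GK-Sham-PF array overlap another group, so the sign within a slide was fixed by the selection and only the size is described. Within slide B the difference from Wistar ran from -1.87 for Ampd3 to 1.59 for Ampd1. For Iqub it was 0.45 within slide B against 1.26 over all arrays. For RGD1306484 it was larger within the slide, at 1.36 against 0.82, and for Ftcd smaller, at -0.57 against -1.02. Within slide C the difference between the GK groups was 1.57 for Oxct2b against 0.97 over all arrays. With slide as a block, 5 of the 12 kept a share of at most 0.25 of a difference of at least 0.8, namely Ampd3, Gpr137, LOC100361261, Cyp3a62 and Ampd1. The block estimate of the share was -1.57 for Oxct2b, -1.20 for Ftcd and -4.11 for Iqub.

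**Figure D4:**
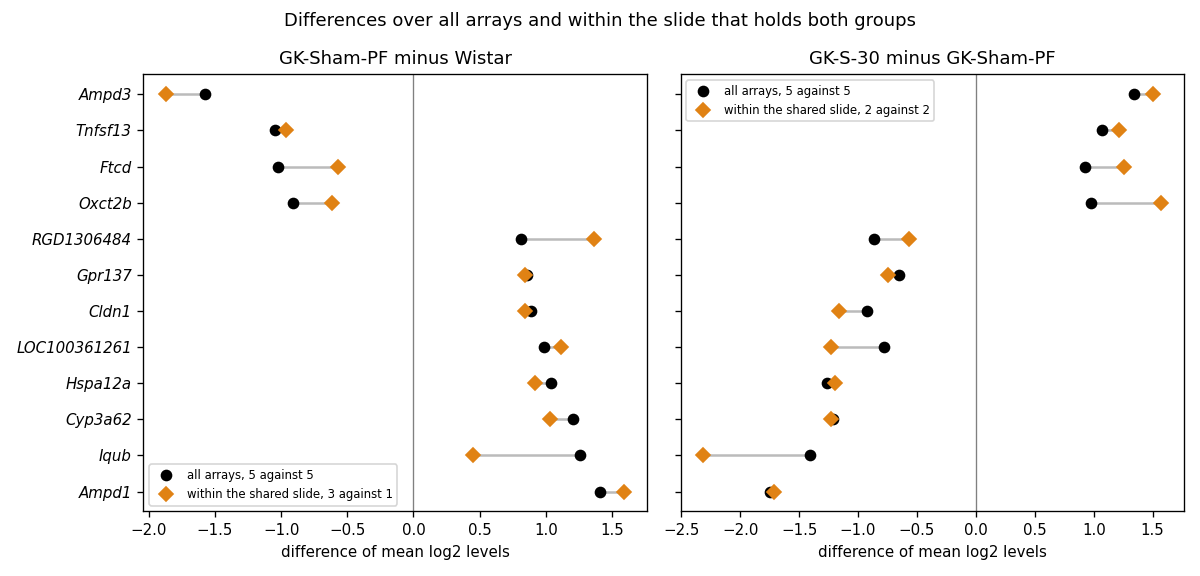
Difference of mean log2 levels of the 12 genes over all arrays (circles, 5 against 5) and within the slide that holds both groups (diamonds, 3 against 1 at left and 2 against 2 at right). The selection fixes the signs; Iqub moves from 1.26 to 0.45 at left and from -1.41 to -2.31 at right.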

How the data were processed

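The authors amplified total RNA of 15 rats, labelled it with Cy3 and hybridized the product to 1-color Agilent whole rat genome arrays (45018 spots, 41012 probes, coordinates rn4). The arrays were read with Feature Extraction 10.7. The array files hold intensity values as deposited. The series matrix holds log2 values that the authors quantile-normalized in GeneSpring, with 1 median of 5.61 in every column; it followed the log2 processed signal with a correlation of at least 0.9996.

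Probes were named through RefSeq (GRCr8): 17541 by accession, 3098 by symbol and 539 by synonym, while 1325 kept the array's name and 18509 unnamed ones were left out. Probes well above background on all 5 arrays of at least 1 group were used (17018 probes, 13013 genes), and a gene was taken at its brightest probe. The share of probes above background ranged from 66.7% to 74.7% over the arrays and 0 spots were saturated; the number of arrays limits the precision. Wistar array 3 and GK-Sham-PF array 5 were dim, each with a 75th percentile of the processed signal of 225 against 329 to 384 on the others.

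All 3 pairs were compared over all genes in 1 limma 3.58.1 model (R 4.3.3) with Benjamini-Hochberg adjustment at 0.05. The procedure was tested on simulated data. The 12 genes and the gene lists were chosen with earlier results of these data known, and the adipocyte list and the related enzymes after their values were seen. All 12 genes are named, with at most 3 genes just outside each bound. Other genes of a list were to be named only where it held at least 2 of the 12; 0 lists did, so all such genes were named after their values were seen. Alternatives covered normalization, probe filter, probe averaging, the bounds of the rule, each array left out, slide and replicate blocks, and the methods' Tukey comparison. Some genes of the lists are not reported here. Figures were drawn with matplotlib.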

Additional observations from a re-analysis of the deposited data

Results flagged for a closer look

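Of the 36 groups of 5 arrays (12 genes in 3 groups), 4 held an array that lay far from the other 4, by a gap of more than 0.71 of the group's range, Dixon's critical value; chance flags about 1 group in 20. Tnfsf13 read 11.70 on Wistar array 4, where the other Wistar arrays read 11 to 11.09. Gpr137 read 7.81 on Wistar array 5, where the others read 7.92 to 7.94. LOC100361261 read 9.73 on GK-S-30 array 2, where the others read 10.51 to 10.76. Ampd1 read 5.55 on GK-S-30 array 2, where the others read 6.5 to 6.88. None of the 4 was a GK-Sham-PF array.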

How the results depend on the processing

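The rule gave 8 genes higher and 4 lower in GK-Sham-PF rats. With normexp background correction and an offset of 50 it gave 4 higher and 2 lower, with 5 of the 12 kept. The difference from Wistar was then -0.27 for Ftcd, -0.39 for Oxct2b, 0.40 for RGD1306484, 0.67 for Gpr137, 0.11 for Cldn1, 0.45 for Iqub and 0.89 for Ampd1. The offset, added to every signal, by itself shrinks log2 differences of dim probes. Its part and that of the background correction cannot be told apart here. A minimum difference of 0.5 gave 7 lower and one of 1 gave 4 higher. A share of at most 0.1 gave 3 higher, and one of at most 0.5 gave 17 higher and 9 lower. Without the requirement on overlap there were 31 higher and 16 lower, and with slide as a fixed block, on means alone, 20 higher and 20 lower. With each array left out in turn, the rule gave 5 to 14 higher genes, lowest without GK-S-30 array 5 and highest without GK-Sham-PF array 5, and 4 to 8 lower, highest without GK-S-30 array 4. Tnfsf13, Ftcd, Oxct2b and Cyp3a62 remained under all 15 omissions, Ampd1 under 8 and Gpr137 under 9. Without both dim arrays, an alternative chosen after seeing the data, 10 higher and 5 lower genes met the rule, 8 of the 12 among them; Gpr137, LOC100361261, Iqub and Ampd1 did not. Scaling to the 75th percentile kept 7 of the 12. Cyp3a62 met the rule under all 13 settings other than the omissions. Of these, the looser bounds and the rule without the requirement on overlap could not remove any of the 12. The difference from Wistar moved by more than the SD between rats in 11 of 274 recomputations over the 12 genes, of which the omissions of GK-S-30 arrays could not change it. Over all genes, limma called 1145 genes between GK-Sham-PF and Wistar rats, 1252 between the GK groups and 3415 between Wistar rats and those with RYGB. With slide as a fixed block these counts were 184, 285 and 239, in a fit that rests on few arrays per slide. The labels do not say whether same-numbered arrays shared a batch, and array 1 of Wistar and of GK-Sham-PF rats shared slide B. The deviations of same-numbered arrays correlated between -0.27 and 0.18, and over 0.1 in 3 of 15 pairs, which does not settle the question. The replicate block gave 847, 884 and 2837 and kept each count within 1.5 times. The Tukey comparison at 0.05, not adjusted over genes, gave 1904 and 2119 for the first pairs. The cause of these changes was not tested. Where a probe was dim, as for Cldn1, Ftcd and Iqub, its signal over background limits the size of a difference.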

Other observations

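Among 43 gene lists written for this tissue, the highest median differences from Wistar in GK-Sham-PF rats were those of acute inflammation and NF-kB genes (0.58, 20 of 26 tested), cytotoxic lymphocyte and NK cell genes (0.45) and immediate early genes (0.42, 23 of 26 tested). In GK-S-30 rats each of these medians was -0.08 from Wistar, against -0.02 over all genes. None of the 12 genes is in these lists. The acute inflammation genes had mean log2 levels of 7.68 to 8.48 on Wistar arrays. The levels were 8.49 to 9.15 on GK-Sham-PF and 8.12 to 8.82 on GK-S-30 arrays, so these means overlapped between the GK groups. Single genes with large differences can carry such a mean. By limma, 5 genes of the list were higher and 0 lower in GK-Sham-PF than in Wistar rats, against 4.20% and 4.60% of all genes. After RYGB 1 was higher and 9 lower than after the sham operation, where 5.17% of all genes were higher and 4.45% lower. At an unadjusted p under 0.05 the count of 0 was 2 by limma and 1 by the Tukey comparison. Slpi, a secreted inhibitor of leukocyte proteases, differed from Wistar by 0.52 in GK-Sham-PF rats with a share of -0.13 remaining in GK-S-30 rats, and Ccl4, a chemokine, by 0.62 with -0.15. Nfkbia, the inhibitor of NF-kB, differed by 0.61 and 0.40 remained. Duox2, the NADPH oxidase of the mucosa, took another course, with a difference of 2.84 and 3.20 times as much after RYGB. The Duox2 level was 6.27 higher after RYGB than after the sham operation, which raised the list mean of the RYGB rats. Whether the list means of the GK groups overlap without Duox2 was not tested. Both comparisons share the GK-Sham-PF arrays, and these genes were named after their values were seen.

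Of the 12 MHC class II presentation genes tested, 3 were higher and 0 lower in GK-Sham-PF than in Wistar rats (4.20% and 4.60% of all genes), and after RYGB 0 were higher and 4 lower than after the sham operation (5.17% and 4.45% of all genes), and 1 higher and 2 lower than in Wistar rats (12.5% and 13.8%). At an unadjusted p under 0.05 these counts of 0 were 2 and 0 by limma and 0 and 0 by the Tukey comparison. Their median difference from Wistar was 0.25 after the sham operation and -0.20 after RYGB. Their mean log2 level, which single genes with large differences can carry, was 10.63 to 11.04 on Wistar, 11.46 to 11.87 on GK-Sham-PF and 10.90 to 11.59 on GK-S-30 arrays.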
